A study of Homo sapiens with 42 samples.

Results

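The platelet-derived growth factor (PDGF) and angiopoietin families were described here in 786-O cells, a human clear cell renal cell carcinoma line that lacks the VHL tumour suppressor and therefore keeps HIF-2α stable, and that has no functional HIF-1α. The members were chosen by gene symbol: the ligands PDGFA, PDGFB, PDGFC and PDGFD, the receptors PDGFRA and PDGFRB, the angiopoietins ANGPT1 and ANGPT2, and the angiopoietin-like genes ANGPTL2 and ANGPTL4. These are 10 of the 60609 genes in the count files. Poly-A RNA-seq was available for 42 libraries in 2 batches, with 3 biological replicates in each group. The study asked how the HIF-α subunits, their DNA-binding and dimerization domains and their intrinsically disordered regions (IDRs) act on transcription.

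All groups shared the VHL-deficient 786-O background with its endogenous HIF-2α. The first batch held 27 libraries: wild-type (WT) cells, the knock-in (KIN) clones A21 (HIF-1β KIN) and A31 (HIF-2α KIN), and 6 lines of WT cells with a stably integrated, V5- and Halo-tagged transgene under the L30 promoter. Each KIN clone is a single homozygous clone with a V5-Halo tag on the endogenous protein, so that clone and tag cannot be told apart. The transgenes encoded HIF-1α, the DNA-binding mutant HIF-1α R30E, the dimerization mutant HIF-1αDM (R170A and V191D), HIF-2α, the DNA-binding mutant HIF-2α R27E and the dimerization mutant HIF-2αDM (R171A and V192D). The title of the HIF-2αDM libraries names HIF-2α and their genotype label names HIF-1α, and the title was followed. The second batch held 15 libraries: WT cells and 4 lines with an L30-driven transgene, which was HIF-2α, HIF-1α or a chimera of both, HIF-1α/2α or HIF-2α/1α. In a chimera the name before the slash gives the structured N-terminal part, which holds the DNA-binding and dimerization domains, and the name after it gives the IDR.

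PDGFs are dimeric growth factors that bind the receptor tyrosine kinases PDGFRα and PDGFRβ. They are best known for recruiting pericytes, smooth muscle cells and fibroblasts to growing vessels. Angiopoietins act on the endothelial receptor TIE2, encoded by TEK, with ANGPT1 stabilising vessels and ANGPT2 mostly opposing it, while angiopoietin-like proteins share the fold of the angiopoietins but do not act through TIE2. In clear cell renal carcinoma, a highly vascular tumour, loss of VHL leaves HIF active in normal oxygen, and HIF dimers of an α subunit with HIF-1β bind DNA at the core letters ACGTG or GCGTG.

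The members are spread over the genome, here given on hg38 with gene models of GENCODE release 44. PDGFA (ENSG00000197461.13) lies at chr7:497258-520296, PDGFB (ENSG00000100311.17) at chr22:39223359-39244982, PDGFC (ENSG00000145431.11) at chr4:156760454-156971799 and PDGFD (ENSG00000170962.13) at chr11:103907189-104164379, all on the minus strand. PDGFRA (ENSG00000134853.12) lies at chr4:54229280-54298245 on the plus strand and PDGFRB (ENSG00000113721.14) at chr5:150113839-150155872 on the minus strand. ANGPTL2 (ENSG00000136859.10) lies at chr9:127087348-127122635 on the minus strand and ANGPTL4 (ENSG00000167772.12) at chr19:8363289-8374370 on the plus strand. Reads had been counted without regard to strand, so reads of overlapping exons cannot be assigned to a gene. PDGFD shares 4.53% of its exon bases with DDI1 on the opposite strand, ANGPT2 shares 9.69% with MCPH1, and PDGFRA shares 16.1% with another gene on its own strand.

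The promoters of ANGPTL4 and ANGPTL2 are shown because these members had the largest changes in the HIF-2α lines. Each line gives the 250 bases before the annotated start (RefSeq, GRCh38.p14), 5′ to 3′ on the gene's strand, with ACGTG or GCGTG on either strand in capitals.
ANGPTL4, plus strand, chr19:8363905-8364154: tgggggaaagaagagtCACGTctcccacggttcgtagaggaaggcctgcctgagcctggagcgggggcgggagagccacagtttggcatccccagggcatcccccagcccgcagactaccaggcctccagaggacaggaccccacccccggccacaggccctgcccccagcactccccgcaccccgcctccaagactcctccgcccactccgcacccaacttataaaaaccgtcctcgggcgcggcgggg
ANGPTL2, minus strand, chr9:127122636-127122885: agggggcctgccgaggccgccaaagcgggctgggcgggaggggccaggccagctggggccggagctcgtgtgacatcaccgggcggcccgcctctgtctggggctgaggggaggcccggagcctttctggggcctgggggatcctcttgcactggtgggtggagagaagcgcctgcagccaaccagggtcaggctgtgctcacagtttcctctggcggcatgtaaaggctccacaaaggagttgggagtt
The ANGPTL4 stretch holds ACGTG once, on the reverse strand and so printed as CACGT, 234 bases before the RefSeq start, and the ANGPTL2 stretch holds neither motif. The ANGPTL4 stretch lies inside the GENCODE span given above, which starts further upstream at chr19:8363289. The distance therefore holds for the RefSeq start only. Of 35116 promoters of this length, 18.5% hold ACGTG, 32.2% hold GCGTG and 43.2% hold at least one of them. A promoter entry was found for 6 of the 10 members. A match of these letters is a description of the sequence and not a measured binding site.

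Reads counted on genes numbered 42377599 to 101186554 per library of the first batch, and 76366799 to 109642159 per library of the other. Levels are given below as normalized counts, that is, reads scaled by TMM library sizes to a common total within a batch, so they are not compared between batches. The detection floor was set at 3 counts, equal to 2.10 to 4.74 normalized counts in libraries of the first batch and 2.43 to 3.57 in the others, and covers counting error only. Differences were tested by edgeR's quasi-likelihood test over all genes of a batch, and calls required an adjusted p (Benjamini-Hochberg) no higher than 0.01 together with a change of 2-fold or more. All lines of a batch were compared with the same 3 WT libraries. The transgenes were visible in the counts on their genes: HIF1A had a mean of 242 normalized counts in WT cells and 3038 in the HIF-1α line, and EPAS1, the gene of HIF-2α, had 14498 in WT cells and 44695 in the HIF-2α line. In HIF-2α KIN cells EPAS1 had a mean of 6177. Summed counts of 5 markers of the renal line (PAX8, KRT8, KRT18, CDH6 and VIM) were 159397 to 302082 per library of the first batch and 348443 to 437658 per library of the second. Those of 5 endothelial markers were 11.0 to 112 in the first and 26.0 to 165 in the second batch, with PECAM1 at no more than 5 reads in any library. ROBO4 had medians of 36.0 normalized counts in the first and 42.4 in the second batch, and TEK 0.701 and 16.7. A filter on low counts was passed by 7 members in the first and by 10 in the second batch.

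Per kilobase of exon, PDGFB was the most abundant member in WT cells, at 50.5 CPM (library-size-scaled counts) per kilobase in the first and 29.7 in the second batch. PDGFC followed at 7.64 and 11.1, and PDGFA at 4.48 and 4.53. ANGPTL4 was at 0.620 and 0.254 and PDGFRB at 0.313 and 0.141. ANGPTL2 and PDGFD were lowest among the members that passed the filter in both batches, at 0.0885 and 0.0774 in the first and 0.0880 and 0.116 in the second batch. The expressed part of the families in these cells was thus mostly ligand, with PDGFB at the top, while PDGFRA, ANGPT1 and ANGPT2 were at or near the detection floor.

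PDGFB encodes the B chain of PDGF, which binds both PDGF receptors. WT cells of the first batch had 10933, 14276 and 15437 normalized counts, compared with 29127, 29185 and 33126 for the HIF-2α line. Every HIF-2α library lay above every WT library, and PDGFB rose by 1.17 on the log2 scale (SE 0.17, edgeR adjusted p = 1.83e-05). In HIF-2α KIN cells PDGFB had 7369, 6935 and 7365, below every WT library. That difference was -0.91 (SE 0.17, adjusted p = 0.000604 in edgeR's test), which stayed under the fold change of 2 and among the fits that left out a library was called only in that without WT replicate 1, at -1.04. HIF-1α R30E had 6718, 5105 and 7765, where PDGFB fell by 1.05 (SE 0.17, edgeR adjusted p = 0.000164). The R30E value went under the fold change of 2 without WT replicate 3, at -0.95, or without R30E replicate 2, at -0.91. The 5 other lines of the first batch, HIF-1α among them, ranged from 10194 to 18083 and none was called against WT cells.

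For PDGFB the second batch gave 11019, 10894 and 9912 normalized counts in WT cells and 10389, 10172 and 9754 with HIF-1α. With HIF-2α/1α it had 9808, 8413 and 8473, with HIF-2α 16293, 16719 and 15926, and with HIF-1α/2α 21927, 23297 and 22009. The 6 libraries with a 2α-IDR were all above the 9 others. PDGFB rose with HIF-1α/2α by 1.08 (SE 0.06, edgeR adjusted p = 1.38e-20), while its difference of 0.62 with HIF-2α (adjusted p = 1.05e-12 in the same edgeR test) was less than 2-fold.

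**Figure D1:**
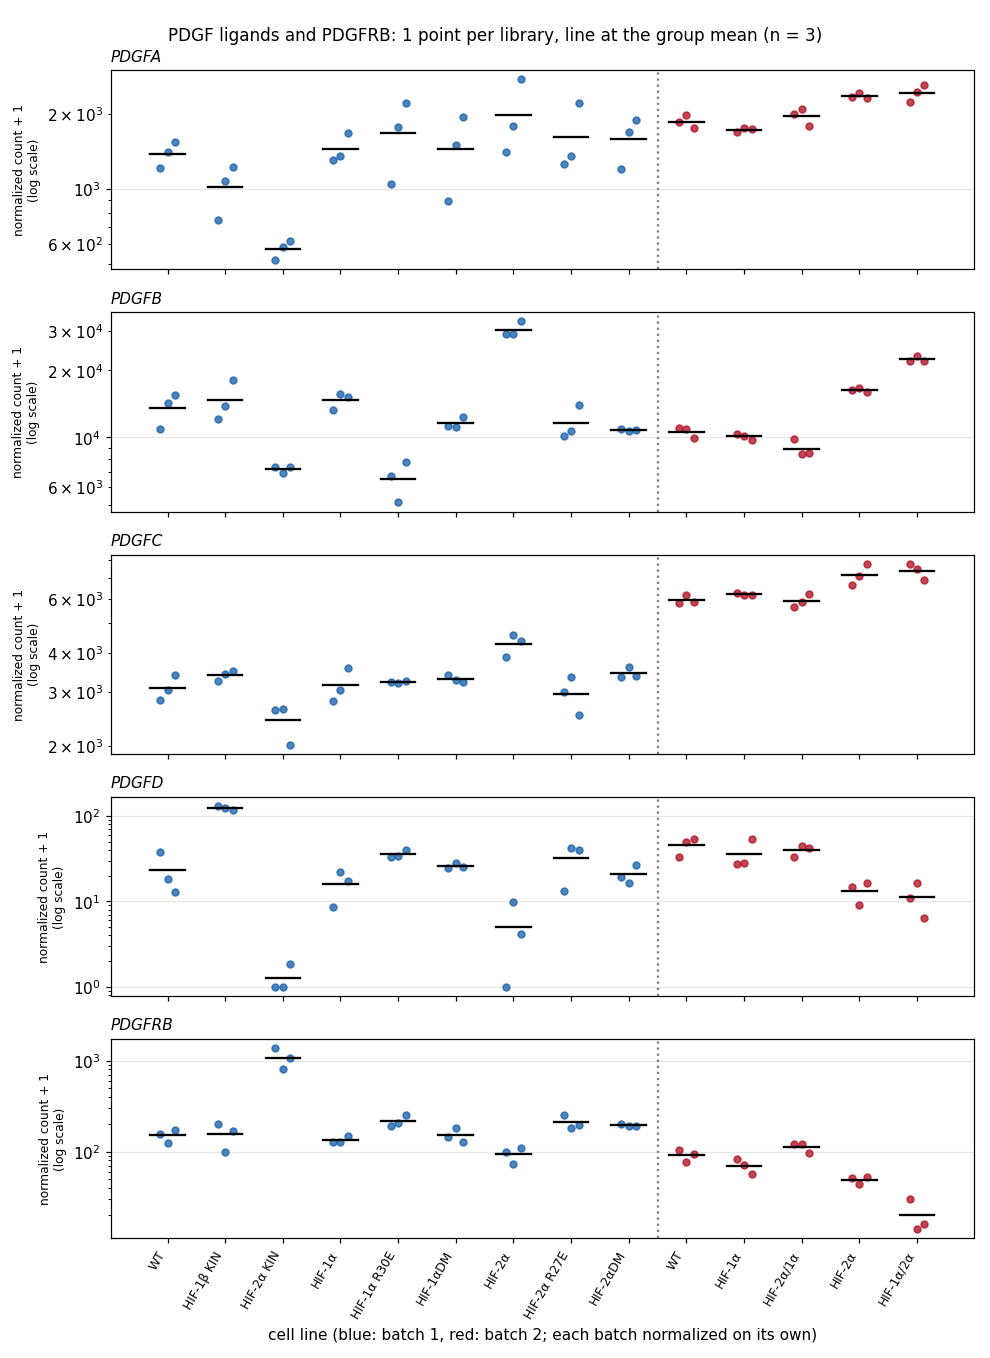
Normalized count plus 1 (log axis) of PDGFA, PDGFB, PDGFC, PDGFD and PDGFRB in each library, as 1 point per library, for the 9 groups of the first batch (blue) and the 5 groups of the second (red). PDGFB stands highest in the lines with HIF-2α and HIF-1α/2α, PDGFRB is 799 to 1372 in HIF-2α KIN cells against 122 to 171 in WT cells of the same batch, and PDGFD is at or near 0 in HIF-2α KIN cells.

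PDGFA and PDGFC encode ligands that act mainly through PDGFRα, and PDGFC needs proteolytic activation outside the cell. PDGFA had 1206, 1401 and 1535 normalized counts in WT cells of the first batch and 515, 581 and 616 in HIF-2α KIN cells. PDGFA fell there by 1.27 (SE 0.29, edgeR adjusted p = 0.00400), a 2.42-fold decrease with no overlap between the groups. This call was lost in 5 of the 6 fits that left out 1 of the libraries compared, all but the one without WT replicate 1, with adjusted p-values of 0.0129 to 0.0285 there. These fits held no term for the replicate number. With the replicate number as a block and all libraries, the call stood at -1.27 (edgeR adjusted p = 3.24e-07). No other line had a call for PDGFA. In the second batch it had 1860, 1972 and 1746 with WT, 2326, 2415 and 2315 with HIF-2α, and 2222, 2445 and 2613 with HIF-1α/2α. The differences from WT of 0.34 and 0.38 had edgeR adjusted p-values of 0.000193 and 3.06e-05, but lay far below the 2-fold threshold.

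PDGFC was called in no comparison. It had 2819, 3028 and 3382 normalized counts in WT cells of the first batch and 3873, 4582 and 4373 with HIF-2α, a difference of 0.48 (SE 0.14, edgeR adjusted p = 0.0185) without overlap. The later differences from WT were 0.27 for HIF-2α and 0.31 for HIF-1α/2α (edgeR adjusted p = 0.000324 and 3.73e-05). PDGFC and PDGFA thus showed small differences of the same sign as PDGFB in these lines, none of which reached 2-fold.

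PDGFD, a ligand of PDGFRβ that is also activated by proteolysis, was expressed at a low level. WT cells of the first batch had 37.2, 17.4 and 11.9 normalized counts and HIF-2α KIN cells 0, 0 and 0.845. These come from 80 reads in WT cells and 1 read in HIF-2α KIN cells, a ratio of 57.8 with an exact 95% interval of 10.1 to 2310 from counting error (edgeR adjusted p = 0.000101). HIF-1β KIN cells stood on the other side, at 130, 124 and 116, where PDGFD rose by 2.47 (SE 0.54, edgeR adjusted p = 0.00685). This call was lost without WT replicate 2, WT replicate 3 or any 1 of the HIF-1β KIN libraries, with adjusted p-values of 0.0174 to 0.0579. With the replicate number as a block and all libraries, it stood at 2.44 (edgeR adjusted p = 0.00072). In the HIF-2α line PDGFD had 0, 8.86 and 3.19, a difference of -2.43 (SE 0.66, edgeR adjusted p = 0.0118) that missed the threshold. It passed by DESeq2 (adjusted p = 0.00314), with no filter or edgeR's filterByExpr filter on low counts (edgeR adjusted p = 0.00481 and 0.00982), and without WT replicate 3, at -2.73, or without HIF-2α replicate 2, at -3.51.

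For PDGFD the second batch gave 31.8, 48.5 and 52.1 normalized counts in WT cells, 26.0, 27.1 and 52.1 with HIF-1α, and 31.9, 43.1 and 41.1 with HIF-2α/1α. With HIF-2α it had 13.9, 8.08 and 15.3, and with HIF-1α/2α 9.95, 15.5 and 5.42. The libraries with a 2α-IDR all lay below the others, the opposite of PDGFB. PDGFD fell by 1.82 with HIF-2α (SE 0.44, edgeR adjusted p = 0.000747) and by 2.10 with HIF-1α/2α (SE 0.45, edgeR adjusted p = 0.000144).

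PDGFRB encodes the receptor of PDGF-BB and PDGF-DD and is known as a marker of pericytes. Normalized counts were 157, 122 and 171 in WT cells of the first batch but 1372, 799 and 1055 in HIF-2α KIN cells. PDGFRB rose 7.15-fold there (log2 2.84, SE 0.26, edgeR adjusted p = 1.61e-08), the only line in which a PDGF receptor was called higher than in WT cells. The summed level of 7 mural and fibroblast markers, mostly COL1A1, was 875 to 1242 in WT and 1216 to 1519 in HIF-2α KIN cells. COL1A1 had means of 778 in WT and 1191 in HIF-2α KIN cells. The 6 other markers were not higher there: DCN had no read in either group, and the means were 53.2 and 47.3 for RGS5, 19.5 and 12.6 for CSPG4, 109 and 105 for ACTA2, 72.3 and 46.4 for LUM, and 5.76 and 0 for DES. HIF-1β KIN cells had 202, 99.0 and 166, which overlapped WT cells. In the HIF-2α line PDGFRB had 97.9, 72.4 and 107, below every WT library, a difference of -0.70 that was not called (SE 0.26, edgeR adjusted p = 0.0722).

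The receptor's levels in the second batch were 102, 76.0 and 92.2 normalized counts for WT cells, 82.0, 69.7 and 55.0 with HIF-1α, and 121, 121 and 95.4 with HIF-2α/1α. The 2α-IDR lines were again lowest, HIF-2α at 50.6, 42.7 and 51.6 and HIF-1α/2α at 29.0, 13.1 and 15.2. PDGFRB fell by 2.19 with HIF-1α/2α (SE 0.30, edgeR adjusted p = 6.51e-08). With HIF-2α the difference of -0.89 (SE 0.28, edgeR adjusted p = 0.00884) was under 2-fold, and was called only without WT replicate 2, at -1.01.

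The second receptor, PDGFRA, was barely detected. It had 3 reads in all in the first batch, no more than 1 in a library, and 27 reads in the second, no more than 8 in a library. In the second batch these were 0, 0 and 1 in WT cells, 8, 6 and 0 with HIF-2α, and 0 in all 3 HIF-1α libraries. ANGPT1, the TIE2 agonist, had 12 reads in the first and 32 in the second batch. ANGPT2, its mostly antagonistic relative, had 12 and 49, of which 18 were in 1 HIF-1α/2α library while another library of that line had 0. None of these 3 genes passed the filter in the first batch or was called in the second. For PDGFRA with HIF-2α, 14 reads against 1 in WT cells gave a ratio of 16.8 with an exact 95% interval of 2.56 to 710.5 from counting error, and an edgeR adjusted p of 0.0908, with 1 of the 3 HIF-2α libraries at 0.

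ANGPTL2 encodes a secreted angiopoietin-like protein known for roles in inflammation and vessel growth. WT cells of the first batch had 19.8, 25.2 and 19.7 normalized counts, against 540.2, 399 and 331 for the HIF-2α line. ANGPTL2 rose 19.6-fold there (log2 4.29, SE 0.44, edgeR adjusted p = 6.57e-08). With HIF-1α it had 52.9, 52.8 and 57.4, above every WT library, a difference of 1.33 that was not called (SE 0.42, edgeR adjusted p = 0.0437) but was with the replicate number as a block, at 1.35 (edgeR adjusted p = 0.00907). Every library of the mutant lines was also above the WT libraries, though none of these lines was called by edgeR's test as reported. DESeq2 called HIF-1α R30E, HIF-1αDM and HIF-2αDM (adjusted p = 0.00158, 2.43e-05 and 0.00466). It also called the line with functional HIF-1α, at 1.38 (DESeq2 adjusted p = 0.0028). HIF-1α R30E had 64.8, 47.2 and 61.5, HIF-1αDM 52.8, 104 and 84.6, HIF-2αDM 43.95, 78.2 and 54.7, and HIF-2α R27E 33.4, 41.4 and 37.3. For HIF-1αDM the difference of 1.90 (edgeR adjusted p = 0.0159) was called with the block, at 1.88 (edgeR adjusted p = 0.00135), and without HIF-1αDM replicate 1, at 2.13. The KIN clones had 2.153 to 32.1 and overlapped WT cells.

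The second batch gave ANGPTL2 38.5, 33.2 and 14.0 normalized counts in WT cells, 36.7, 46.5 and 35.1 with HIF-1α, and 56.8, 77.6 and 43.3 with HIF-2α/1α. With HIF-2α it had 441, 551 and 404, and with HIF-1α/2α 211, 232 and 156. The order HIF-2α, HIF-1α/2α, HIF-2α/1α held without overlap between these lines. ANGPTL2 rose with HIF-2α by 4.01 (SE 0.25, edgeR adjusted p = 5.64e-18), with HIF-1α/2α by 2.79 (SE 0.25, adjusted p = 7.91e-13 in edgeR's test) and with HIF-2α/1α by 1.05 (SE 0.27, edgeR adjusted p = 0.00269). The last call was lost without WT replicate 3, at 0.74, and without HIF-2α/1α replicate 2, at 0.79. With HIF-1α the difference was 0.45 (SE 0.28, edgeR adjusted p = 0.299).

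**Figure D2:**
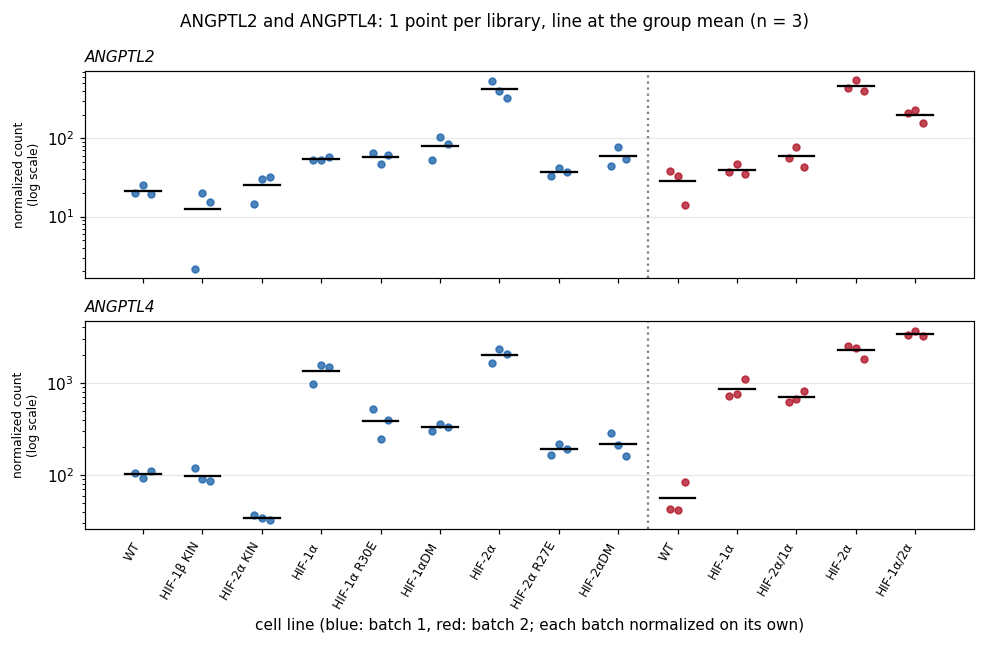
Normalized count (log axis) of ANGPTL2 and ANGPTL4 in each library, as 1 point per library, for the 9 groups of the first batch (blue) and the 5 groups of the second (red). ANGPTL2 is set apart in the lines with HIF-2α or HIF-1α/2α, at 156 to 551, whereas ANGPTL4 is also high in the lines with HIF-1α and HIF-2α/1α, at 616 to 1570.2.

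ANGPTL4 encodes a secreted inhibitor of lipoprotein lipase and is a textbook hypoxia-inducible gene. WT cells of the first batch had 106, 91.9 and 112 normalized counts. The counts were 967, 1570.2 and 1467 with HIF-1α, and 1654, 2309 and 2034 with HIF-2α. ANGPTL4 rose 12.9-fold with HIF-1α (log2 3.69, SE 0.26, edgeR adjusted p = 1.92e-10) and 19.3-fold with HIF-2α (log2 4.27, SE 0.27, edgeR adjusted p = 1.13e-11). It fell in HIF-2α KIN cells, at 36.6, 34.3 and 33.0, by 1.58 (SE 0.27, edgeR adjusted p = 0.000185), while HIF-1β KIN cells overlapped WT cells at 121, 90.4 and 85.4. Both HIF-1α mutant lines were also higher than WT cells. HIF-1α R30E had 521, 248 and 392 (log2 1.90, SE 0.25, edgeR adjusted p = 7.07e-06) and HIF-1αDM 301, 361 and 333 (log2 1.68, SE 0.25, edgeR adjusted p = 0.000212). The HIF-2α mutants had 166, 218 and 194 (R27E) and 283, 209 and 163 (DM), all above the WT libraries, with differences of 0.90 and 1.08 that were not called (edgeR adjusted p = 0.0838 and 0.0244). The second of these, for HIF-2αDM, was called with no filter on low counts and with the block (edgeR adjusted p = 0.00353 and 0.00804). DESeq2 called it too (adjusted p = 0.00277).

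ANGPTL4 levels of the second batch were 43.3, 42.05 and 83.2 normalized counts in WT cells, 727, 748 and 1100 with HIF-1α, and 616, 672 and 807 with HIF-2α/1α. With HIF-2α it had 2531, 2365 and 1832, and with HIF-1α/2α 3304, 3646 and 3211, so that all 12 transgene libraries lay above WT cells. The rises on the log2 scale were 3.66 (HIF-2α/1α), 3.95 (HIF-1α), 5.34 (HIF-2α) and 5.93 (HIF-1α/2α), with edgeR adjusted p-values of 1.53e-21 or less. This is a 12.6-fold to 61.1-fold increase, the largest of any member. Of the 12 lines compared with WT cells in both batches, ANGPTL4 was called higher in 8 and lower in 1, ANGPTL2 higher in 4 and PDGFB higher in 2 and lower in 1. PDGFD was called higher in 1 and lower in 3, PDGFRB higher in 1 and lower in 1, PDGFA lower in 1 and PDGFC in none.

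**Figure D3:**
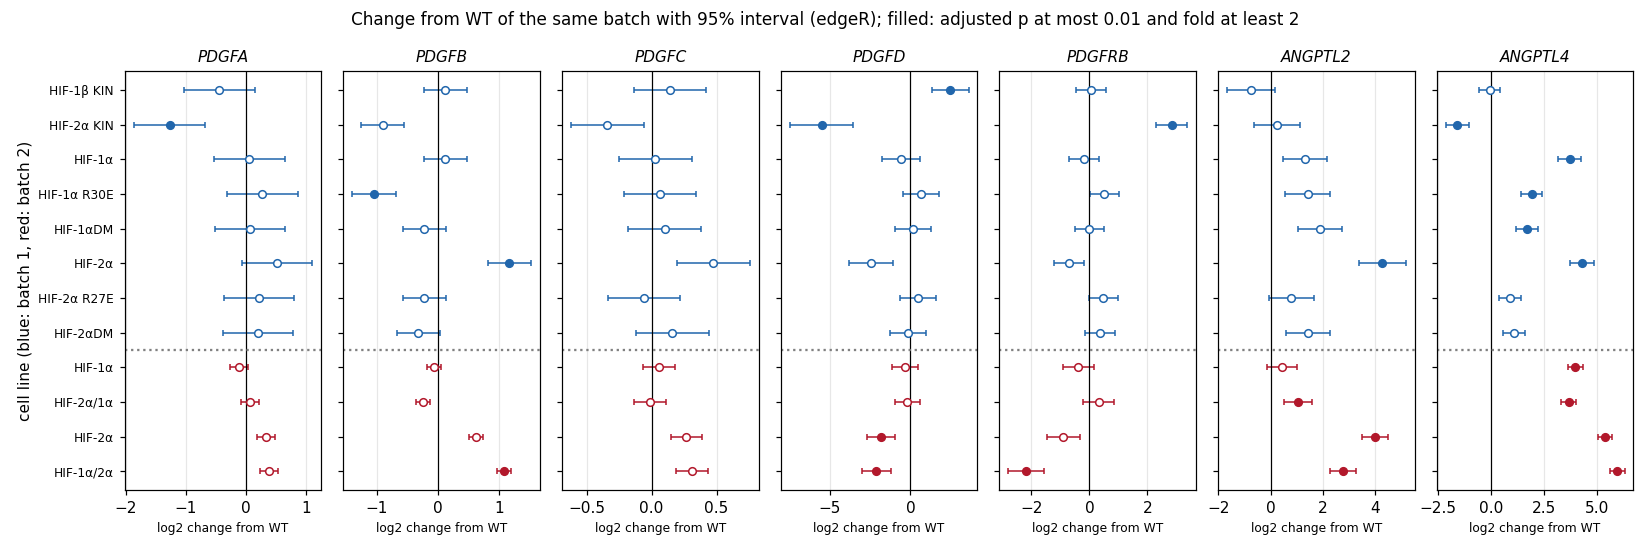
Log2 change from WT cells of the same batch with its 95% interval (horizontal bars) for 7 members in 12 lines, with filled points where the gene was called. ANGPTL4 is called in 9 of the 12 lines, PDGFC in none, and PDGFRB changes upward in HIF-2α KIN cells and downward with HIF-1α/2α.

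Counted by line, the calls among members stood beside very different shares of called genes overall. In HIF-2α KIN cells 4 of the 7 members tested were called, PDGFRB higher and PDGFA, PDGFD and ANGPTL4 lower, where 4.14% of all tested genes were called. The median difference was -0.91 over the members and -0.04 over all genes, and the lower level of EPAS1 RNA given above stood beside it. By western blot, the study reported a similar amount of HIF-2α protein in this clone and in WT cells. The part of EPAS1 in the result was not tested. In HIF-1β KIN cells 1 member was called, PDGFD, with 1.38% of all genes called. With HIF-1α 1 member was called (3.79% of all genes), and 2 with the replicate block or by DESeq2. HIF-1α R30E had 2 called members (2.61%), or 3 with the block or by DESeq2. HIF-1αDM had 1 (0.457%), or 2 with the block, by DESeq2 or with no filter on low counts. With the block the number of all genes called for HIF-1αDM rose from 107 to 207. HIF-2α had 3 (5.72%), namely PDGFB, ANGPTL2 and ANGPTL4, with a median difference of 0.52 over the 7 members and -0.09 over all genes. With PDGFD it had 4 by DESeq2, with the block or under either other filter. No member was called in edgeR's fit as reported with HIF-2α R27E (0.496%) or HIF-2αDM (0.474%). There the members with an unadjusted p under 0.05 numbered 1 and 2, and DESeq2 called 0 and 2. Beside these stood 1755 and 1939 of the 23410 genes tested at an unadjusted p under 0.05. DESeq2 calls over all genes were 197 and 204. With no filter on low counts, or with the block, edgeR called 1 with HIF-2αDM, ANGPTL4. For HIF-2α R27E the block took the number of all genes called from 116 to 213.

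Calls among members in the second batch numbered 1 for the HIF-1α line (4.39% of all genes called), 2 for HIF-2α/1α (3.49%), 3 for HIF-2α (7.58%) and 5 for HIF-1α/2α (7.78%). Besides ANGPTL4 these were ANGPTL2 with HIF-2α/1α, ANGPTL2 and PDGFD with HIF-2α, and PDGFB, PDGFD, PDGFRB and ANGPTL2 with HIF-1α/2α. The 2 lines with a 2α-IDR had calls in both directions, with PDGFD lower in both, PDGFRB lower and PDGFB higher with HIF-1α/2α.

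Functional and mutant HIF-α were compared directly in the first batch, which asks which differences depend on DNA binding or dimerization. The level of the transgene proteins is not in these data, so a difference in their amount cannot be told apart from an effect of the mutation. Against HIF-2α R27E, 5 members were called for HIF-2α (3.63% of all genes). PDGFB was higher by 1.40, ANGPTL2 by 3.50 and ANGPTL4 by 3.37 (edgeR adjusted p = 2.22e-06, 1.34e-06 and 5.71e-10). PDGFD and PDGFRB were lower, at -2.90 (SE 0.66, edgeR adjusted p = 0.00376) and -1.17 (SE 0.26, edgeR adjusted p = 0.00280). Both of these calls depended on single libraries. The PDGFD call was lost without HIF-2α replicate 1 or 3 or HIF-2α R27E replicate 2 or 3 (edgeR adjusted p = 0.0115 to 0.0282), and the PDGFRB call without HIF-2α replicate 1 or 2 or R27E replicate 1 (edgeR adjusted p = 0.0115 to 0.0335). With the replicate number as a block and all libraries, both calls stood (edgeR adjusted p = 0.00112 for PDGFD and 0.000282 for PDGFRB).

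Against HIF-2αDM, 4 members were called (3.96% of all genes). PDGFB was higher by 1.496, ANGPTL2 by 2.84 and ANGPTL4 by 3.20 (edgeR adjusted p = 7.52e-07, 1.71e-05 and 7.97e-10). PDGFRB, at 97.9, 72.4 and 107 against 200.1, 192 and 190.0 normalized counts, was lower by 1.06 on the log2 scale (SE 0.26, edgeR adjusted p = 0.00644). That call was lost when any 1 of the 6 libraries was left out, with edgeR adjusted p-values of 0.0119 to 0.0504. PDGFD, at -2.29 (edgeR adjusted p = 0.0242), was called by DESeq2, at -2.28 (adjusted p = 0.00776). Among the fits that left out a library it was called only without HIF-2α replicate 2, at -3.37. The 3 members that HIF-2α raised against WT cells were therefore also higher than with either mutant, and the lower level of PDGFRB was less firm.

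HIF-1α had 2 called members against HIF-1α R30E (1.75% of all genes) and 1 against HIF-1αDM (1.37%). ANGPTL4 was higher than with either mutant, by 1.79 and 2.01 (edgeR adjusted p = 1.41e-05 and 3.34e-06). PDGFB was higher than with R30E by 1.17 (edgeR adjusted p = 5.81e-05), where HIF-1α itself was not called against WT cells and R30E was lower. ANGPTL2 did not follow this pattern: its difference was -0.09 against R30E and -0.57 against HIF-1αDM (95% intervals -0.91 to 0.73 and -1.38 to 0.24, edgeR adjusted p = 0.976 and 0.645).

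The direct comparison of HIF-2α with HIF-1α was possible in both batches. In the first batch 2 members were called (2.4% of all genes), PDGFB at 1.05 (SE 0.17, edgeR adjusted p = 0.000171) and ANGPTL2 at 2.96 (SE 0.41, edgeR adjusted p = 2.14e-05), both higher with HIF-2α. The PDGFB difference went under 2-fold without HIF-1α replicate 1, at 0.98, or without HIF-2α replicate 3, at 0.97. In the second batch 3 members were called (3.78%). ANGPTL2 was higher by 3.56 and ANGPTL4 by 1.39 (edgeR adjusted p = 2.27e-16 and 1.22e-12), and PDGFD was lower, at -1.49 (SE 0.45, edgeR adjusted p = 0.00953). The PDGFD call was lost without HIF-1α replicate 3, at -1.09, and without any 1 of the HIF-2α libraries (edgeR adjusted p = 0.0144 to 0.128 in these fits). PDGFB, at 0.69 in the second batch (edgeR adjusted p = 9.50e-14), and ANGPTL4, at 0.58 in the first (edgeR adjusted p = 0.188), were each called in only 1 of the batches.

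The chimeras allow the IDR and the structured domain to be separated. The IDR effect was taken as the mean log2 level with a 2α-IDR (HIF-1α/2α and HIF-2α) minus that with a 1α-IDR (HIF-2α/1α and HIF-1α). It was called for 5 of the 10 members tested (4.41% of all genes called). ANGPTL2 had the largest effect, 2.65 (95% interval 2.31 to 2.98, edgeR adjusted p = 1.03e-17), followed by ANGPTL4 at 1.83 (1.65 to 2.01, edgeR adjusted p = 7.01e-22) and PDGFB at 1.01 (0.93 to 1.09, edgeR adjusted p = 5.88e-25). PDGFD and PDGFRB had effects in the other direction, -1.70 and -1.51 (edgeR adjusted p = 2.16e-05 and 6.02e-08). PDGFA and PDGFC had 0.38 and 0.27, under 2-fold (edgeR adjusted p = 6.68e-08 and 1.38e-06). The PDGFB effect sat at the 2-fold threshold: it was 0.99 to 1.00 and no longer called without HIF-1α replicate 3, HIF-2α/1α replicate 2 or 3, HIF-2α replicate 2 or HIF-1α/2α replicate 2. The level of the transgene proteins is not in these data, so a difference in their amount cannot be told apart from a difference in the IDR.

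The structured-domain effect, the mean with the structured part of HIF-2α minus that with the structured part of HIF-1α, was called by edgeR for no member (1.04% of all genes called). Over all genes, 7821 of the 28724 tested had an unadjusted p under 0.05, and DESeq2 called 273. The members with an unadjusted p under 0.05 numbered 5, and DESeq2 called 1. This was PDGFRB, whose 1.00 (SE 0.21, edgeR adjusted p = 0.000299) fell just short of 2-fold. It was called at 1.01 by DESeq2, at 1.01 by edgeR with RLE size factors and at 1.005 with edgeR's filterByExpr filter. It was called at 1.00 to 1.23 without HIF-1α replicate 1 or 2, HIF-2α/1α replicate 3, HIF-2α replicate 2 or HIF-1α/2α replicate 1. ANGPTL2, at 0.91 in all libraries (edgeR adjusted p = 4.98e-05), was called at 1.00 without HIF-2α/1α replicate 3. ANGPTL4 and PDGFB had -0.45 and -0.32 (edgeR adjusted p = 0.000122 and 2.55e-08). PDGFRB and ANGPTL2 were thus somewhat higher, and ANGPTL4 and PDGFB somewhat lower, in lines with the structured part of HIF-2α at the same IDR. The interaction of IDR and structured domain was called by edgeR for no member (1.18% of all genes called). An unadjusted p under 0.05 was found for 2 members and for 5965 of the 28724 genes tested. DESeq2 called 0 members and 361 of all genes. The 2 members under 0.05 were PDGFA and PDGFB, the latter with an interaction of -0.27 (edgeR adjusted p = 0.0190). For ANGPTL2, which was not among them, the interaction was 0.61 (edgeR adjusted p = 0.301).

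**Figure D4:**
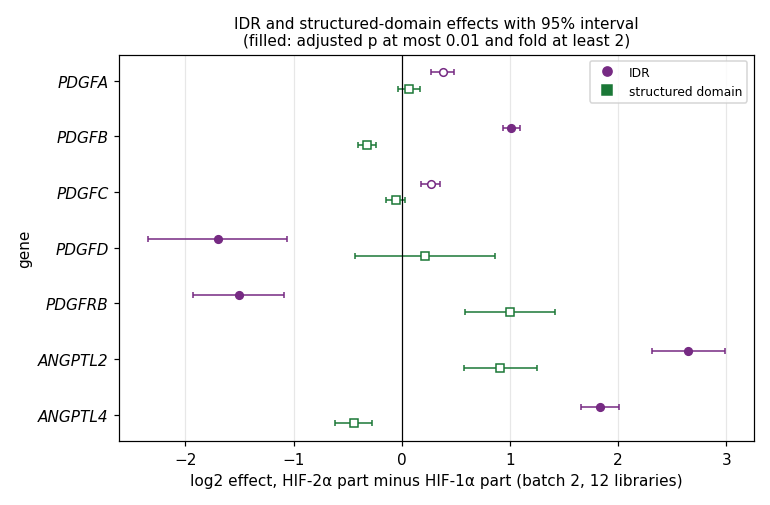
Effect of the IDR and of the structured domain (log2, 2α minus 1α, with 95% intervals) for 7 members over the 4 transgene lines of the second batch. The IDR effects run from -1.70 for PDGFD to 2.65 for ANGPTL2, and the structured-domain effects from -0.45 for ANGPTL4 to 1.00 for PDGFRB.

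WT, HIF-1α and HIF-2α cells were sequenced in both batches, which differed in RNA extraction and library preparation. The response to HIF-1α differed between batches for no member by edgeR (0.00374% of all genes called), with 1 member at an unadjusted p under 0.05, ANGPTL2, at -1.05 (second minus first batch, edgeR adjusted p = 0.896). Of the 26763 genes tested, 1455 had an unadjusted p under 0.05 in that response. For HIF-2α no member was called either (0% of all genes called by edgeR, 2855 with an unadjusted p under 0.05 and 47 called by DESeq2). PDGFB, PDGFC and ANGPTL4 had an unadjusted p under 0.05, and DESeq2 called 0 members for both responses. The difference was -0.69 for PDGFB (SE 0.17, edgeR adjusted p = 0.121), whose rise with HIF-2α was 2.25-fold in the first and 1.54-fold in the second batch, and 0.92 for ANGPTL4 (SE 0.34, edgeR adjusted p = 0.321).

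**Figure D5:**
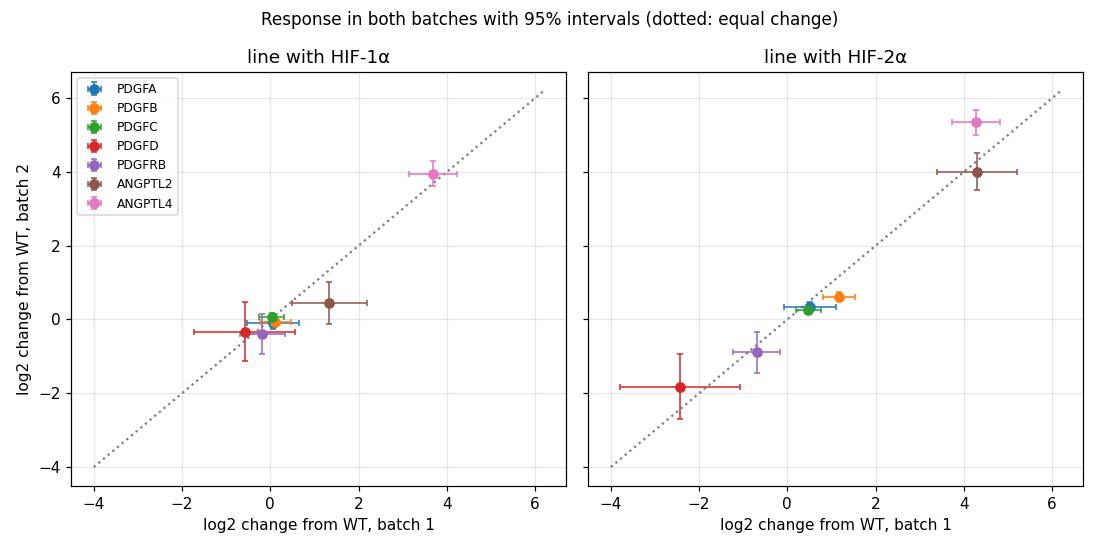
Log2 response to HIF-1α and to HIF-2α of 7 members in the first batch (horizontal axis) against the second (vertical axis), with the line of equal responses. ANGPTL2 and ANGPTL4 lie near 4 or above in both batches with HIF-2α, and ANGPTL4 alone stands out with HIF-1α.

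Genes around the members were described from 3 lists by their counts and medians, with no test of a list. Among 20 genes of PDGF processing and receptor signalling, 2 were called higher and 4 lower in HIF-2α KIN cells, 3 higher and 1 lower with HIF-2α in the first batch, and 5 higher and 0 lower with HIF-2α in the second, with list medians of -0.32, 0.05 and 0.14. The shares of all tested genes called were 4.14%, 5.72% and 7.58% in the same order. PCSK6, a proprotein convertase, was higher with HIF-2α by 4.26 in the first and 3.24 in the second batch (edgeR adjusted p = 3.34e-09 and 7.35e-19), and its IDR effect was 2.67 (edgeR adjusted p = 6.18e-22). It was lower in HIF-1β KIN and HIF-2α KIN cells, at -4.84 and -4.09 (edgeR adjusted p = 2.37e-07 and 7.37e-07). PCSK5, a convertase of the same family, was higher in both clones, by 1.78 and 2.64 (edgeR adjusted p = 2.04e-08 and 1.39e-11). PLAT, the tissue plasminogen activator, which can activate PDGF-CC, was lower in HIF-2α KIN cells, at -2.54, and higher with HIF-1α, by 2.38 and 2.25 in the 2 batches (edgeR adjusted p = 0.000573, 0.000131 and 9.22e-10). LRP1, a co-receptor of PDGFRβ, was higher with HIF-1α by 1.96 and 1.62 and with HIF-2α by 2.17 in the first batch (edgeR adjusted p = 6.65e-07, 1.94e-19 and 7.97e-08).

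Of 15 angiopoietin receptor and other angiopoietin-like genes, 11 were tested in the first and 14 in the second batch. With HIF-2α 2 were called higher and 0 lower in each batch (list medians 0.45 and 0.59), with ANGPTL6 and the integrin gene ITGA5 in the first batch and the receptors TEK and TIE1 in the second. Of all genes tested, 5.72% were called with HIF-2α in the first and 7.58% in the second batch. TIE1 was higher in all 4 lines of the second batch, by 2.55 (HIF-2α) to 5.82 (HIF-1α/2α), with 4.46 for HIF-1α and 2.98 for HIF-2α/1α, from a mean of 4.93 normalized counts in WT cells (edgeR adjusted p of 3.87e-07 or less). Its structured-domain effect was -2.38 (edgeR adjusted p = 3.23e-14). The lipoprotein lipase pathway, the target of ANGPTL4, was covered by 10 genes. Beside the same shares of all genes, 1 was higher and 1 lower with HIF-2α in each batch (list medians -0.35 and -0.20). LIPG, endothelial lipase, was the lower one in both, at -2.62 in the second batch (edgeR adjusted p = 3.40e-27), and it was also lower with HIF-1α R30E and HIF-2α R27E, at -1.87 and -1.32 (edgeR adjusted p = 1.66e-05 and 0.00476). LMF1, which matures lipoprotein lipase, was the higher one in both. LPL itself did not pass the filter in the first batch.

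Patterns most like those of the members were sought among 12461 genes by Pearson correlation of the log2 change over the 12 lines, where lines of a batch share their WT libraries. PDGFB was most like CHML (0.993), SLC2A1 (0.963), which encodes the glucose transporter GLUT1, and DERA (0.963). PDGFRB was most like TIMP2 (0.985), IL20RB (0.958) and HEXIM1 (0.956). ANGPTL2 was most like CAPG (0.972), PPM1M (0.965) and INKA2 (0.951), and ANGPTL4 most like MXRA5 (0.983), CUL7 (0.977) and PRDM8 (0.976). PDGFA, with changes of smaller size, was most like ACTB (0.955), ANTXR2 (0.953) and AC019205.1 (0.952). None of the members searched was among the 3 genes most like another. Genes had to average 50 or more normalized counts in both batches, so PDGFD, PDGFRA, ANGPT1 and ANGPT2 were outside the search. For PDGFC, which was never called, no alike genes were sought.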

How the data were processed

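The authors deposited raw counts of reads per gene for each library. They had aligned reads to hg38 with STAR, kept reads with a unique position and counted them on GENCODE genes with HTSeq 0.11.1 (union mode, unstranded). The batches differed in RNA extraction and library kit.

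Here, genes had to reach 0.5 normalized counts on average in a batch to be tested (23410 and 28724 genes, and 26763 in the joint fit of both batches). Each batch was fitted with all of its groups in edgeR 4.0.16 (R 4.3.3, limma 3.58.1), TMM normalization, the quasi-likelihood test (two-sided) and Benjamini-Hochberg adjustment over all genes tested. Normalized counts are reads divided by the TMM-adjusted library size and multiplied by its batch mean. DESeq2 1.42.0 was an alternative, and the others are given with their effect in the closing section. Scripts were tested on simulated counts. Replicates were named biological by the study, and p-values measure the spread between these libraries. No pair of replicates differed by as little as sampling noise (lowest chi-square per degree of freedom 4.51 over 42 pairs).

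The members and the 3 lists of related genes were chosen with earlier results of these data known. From the lists, at most 3 called genes per comparison were eligible to be named, those with the largest log2 change among those averaging 50 or more normalized counts. ANGPTL6, ITGA5 and TEK, and LMF1, LIPG and PLAT where they fell outside this rule, were named after their values were seen. Genes alike in pattern had the highest Pearson correlation over the lines.

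Replicate numbers come from the labels. Deviations from the group means of same-numbered libraries correlated at 0.134 to 0.323 on average in the comparisons of the first batch, and every number exceeded 0.1 in 7 of 13 (both KIN clones, HIF-1α, HIF-1αDM and HIF-2α R27E against WT, and HIF-2α against HIF-2α R27E and HIF-1α). In the second batch they correlated at -0.00558 to 0.00653, and this held in 0 of 8.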

Additional observations from a re-analysis of the deposited data

Results flagged for a closer look

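Among the genes around the members, the effect of the IDR differed with the structured domain for 3, by the interaction test in edgeR's fit to the second batch. That test called 1.18% of all genes. TIE1 had an interaction of -1.78 (SE 0.36, edgeR adjusted p = 0.000515), with mean normalized counts of 111 with HIF-1α and 284 with HIF-1α/2α against 39.1 with HIF-2α/1α and 29.0 with HIF-2α. PDGFRL, a gene related to the PDGF receptors, had 1.03 (SE 0.19, edgeR adjusted p = 0.000138), with 479 and 302 for the 2 lines with the structured part of HIF-1α and 513 and 662 for those with that of HIF-2α, the 1α-IDR first. For LMF1 it was 1.16 (SE 0.16, edgeR adjusted p = 5.87e-07), with 740 and 482 against 806 and 1166 in the same order. For PDGFRL and LMF1 the 2α-IDR thus went with a lower level beside the HIF-1α structured part and a higher one beside that of HIF-2α.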

How the results depend on the processing

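No member difference that was called, in the reported fit or in an alternative, changed sign in any alternative. With the block 3 differences near 0 that were called in neither fit did (PDGFRB with HIF-1αDM, PDGFA for HIF-1α against HIF-1αDM and ANGPT1 with HIF-1α/2α). The differences called in at least 1 fit were counted once for each alternative fit, so that each difference enters several times. When a setting was changed, 309 such cases kept their side of the thresholds, 20 gained a call and 7 lost one. When a library was left out, 328 cases kept their side, 12 gained and 38 lost a call. The number of members called moved by over 1.5 times in these cases, and the cause was not tested. DESeq2 called 2 with HIF-1α in the first batch, 2 with HIF-1αDM, 2 with HIF-2αDM and 1 for the structured-domain effect. A block on the replicate number gave 2 with HIF-1α in the first batch, 2 with HIF-1αDM, 1 with HIF-2αDM (ANGPTL4, 1.07) and 1 for the structured-domain effect (PDGFRB, 1.02). The block also called ANGPTL2 with HIF-1α R30E (1.44) and PDGFD with HIF-2α in the first batch (-2.50), and changed no other call of a member. With no filter HIF-2αDM had 1 and HIF-1αDM 2. A fit to the compared groups alone gave 1 for HIF-1α R30E, 3 for HIF-2α against R27E and 1 for HIF-2α/1α. RLE size factors and the filterByExpr filter each gave 1 for the structured-domain effect, and RLE lost PDGFRB for HIF-2α against HIF-2αDM (edgeR adjusted p = 0.0103).

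With libraries left out in turn, members called ranged from 0 to 1 for HIF-1β KIN, 3 to 5 for HIF-2α KIN, 1 to 2 for HIF-1α R30E, 1 to 2 for HIF-1αDM, 0 to 0 for HIF-2αDM, 3 to 4 for HIF-2α in each batch, 1 to 2 for HIF-2α/1α, 3 to 4 for HIF-2α against R27E and against HIF-2αDM, 1 to 2 and 2 to 3 for HIF-2α against HIF-1α in the 2 batches, 4 to 5 for the IDR effect and 0 to 2 for the structured-domain effect.

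Over all genes, HIF-1αDM had 107 calls and 208 with no filter, 207 with the block and 202 with DESeq2. HIF-2α R27E had 116, against 215, 213 and 197, and 3 when fitted to only the groups compared. HIF-2αDM had 111, against 209, 209 and 204. The fit to only the groups compared gave 195 for HIF-1β KIN (322) and 532 for HIF-2α against R27E (849). The batch difference in the response to HIF-1α had 1 call, against 6 with no filter and 11 with the block, and that to HIF-2α 0, against 86, 157 and 47 with DESeq2. PDGFRA, ANGPT1 and ANGPT2 were at or near the detection floor, as was PDGFD in the HIF-2α KIN and HIF-2α lines of the first batch. The part of depth in this was not tested.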
